A study of Mus musculus with 12 samples.

Results

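The genes described here are the molecular chaperones and their helpers: heat shock proteins of the Hsp10, Hsp60, Hsp70, Hsp90 and small heat shock families, DNAJ co-chaperones, subunits of the CCT chaperonin, BAG exchange factors, and the heat shock transcription factors Hsf1 and Hsf2. They were taken by gene symbol, with no use of measured values, and 74 of the 10655 genes in the table matched. By the known location of the protein, 48 belong to the cytosol or nucleus, 12 to the endoplasmic reticulum (ER), 8 to the mitochondrion and 6 to other or several places. Hspb11 and Hspbap1 matched by symbol alone and are not known as chaperones.

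SMART-seq, which reads whole transcripts from little RNA, was applied to mouse aortic endothelial cells, the inner lining of the large artery. The title of each library joins a pair of diets, CD and WD, and the first was read as the diet of the mother and the second as that of the offspring. There were 3 libraries each of CD_CD (mother and offspring on CD), WD_CD (mother on WD, offspring on CD), CD_WD (mother on CD, offspring on WD) and WD_WD (both on WD). The offspring on WD had received that diet again for 4 weeks. Genotype, sex, age and any sorting of the cells are not given in the labels, nor whether replicates came from separate animals, so p-values measure only the scatter among these libraries, which may be technical.

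Chaperones bind unfolded protein. Hsp70 proteins take up substrate in cycles of ATP hydrolysis that J-domain proteins (the DNAJ family) start and that exchange factors such as the BAG proteins end, and Hsp90 and the CCT ring act on substrates handed on from them. Each compartment has its own set: Hspa8, the inducible Hspa1a and Hspa1b, Hsp90aa1 and Hsp90ab1 in the cytosol, Hspa5 (BiP) and Hsp90b1 in the ER, and Hspa9 with the Hspd1 and Hspe1 chamber in mitochondria. Hsf1 is known to switch on cytosolic heat shock genes through heat shock elements, whereas ER chaperones are induced in the unfolded protein response through ER stress elements.

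Promoter sequences of some of these genes hold one or the other kind of element, and the sites below are a selection of them. RefSeq promoter windows on GRCm38.p6, from 250 bases before to 50 after a start site, were found for 59 of the 74 genes. A heat shock element of 3 units was searched as the letters GAA and TTC in alternation, each 2 bases from the next, starting with either, which covers both strands. It was present in 3 of the 59 (Hspe1, Hspd1 and Dnajb6), against 0.662% of 27025 genes with such windows. The element of 2 units, built the same way and held within every longer one, was in 17 of the 59, against 17.0% of all genes. Dnajb1 had neither heat shock element in its windows, and Hspa8, Hsp90aa1 and Hsp90ab1 had no window. The ER stress element, CCAAT and CCACG with 9 bases between them, or CGTGG and ATTGG on the other strand, was in 3 of the 59 (Hspa5, Hsp90b1 and Dnajc3, all ER proteins), against 0.137% of all genes. A match is a description of the letters and no evidence of binding.

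Capitals mark the matched letters in the following sites, printed 5′ to 3′ on the strand of the gene. Hspe1 and Hspd1 lie head to head and share 1 site, chr1:55088053-55088082, which is shown on the plus strand for Hspe1 and on the minus strand for Hspd1. The site of Dnajb6 is at chr5:29735844-29735873 (plus). Hspa1a and Hspa1b, which are near-identical copies, hold the same letters at chr17:34972242-34972271 and chr17:34959324-34959353 (both minus), a match to the element of 2 units only. The ER stress elements are at chr2:34772020-34772049 (plus) for Hspa5, chr10:86705632-86705661 and chr10:86705527-86705556 (both minus) for Hsp90b1, and chr14:118937822-118937851 (plus) for Dnajc3. In GENCODE the shared site of Hspe1 and Hspd1 overlaps an exon of Hspd1, and the site of Hspa5 an exon of Hspa5. The site of Dnajb6 overlaps exons of Dnajb6 and of Gm5129.
Hspe1: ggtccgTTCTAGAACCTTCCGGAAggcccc
Hspd1: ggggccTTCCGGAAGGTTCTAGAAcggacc
Dnajb6: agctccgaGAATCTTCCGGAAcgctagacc
Hspa1a and Hspa1b: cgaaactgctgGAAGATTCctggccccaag
Hspa5: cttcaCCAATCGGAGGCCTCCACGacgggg
Hsp90b1, first: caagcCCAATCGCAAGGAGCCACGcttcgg
Hsp90b1, second: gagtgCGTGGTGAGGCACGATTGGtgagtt
Dnajc3: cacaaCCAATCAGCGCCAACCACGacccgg

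Counted reads per library, in units of 1e6, were 10.67 to 19.67 for CD offspring and 4.07 to 18.01 for WD offspring. The 20 most abundant genes took 12.9% to 14.4% of reads in CD offspring against 35.4% to 46.2% in WD offspring, and the chaperone genes took 1.08% to 1.32% and 0.862% to 1.39%. Of the 74 genes, 71 had reads in all 12 libraries, and Hspb7, Hspb2 and Dnajc12 had at least 1 library without a read. Sums of endothelial, lymphocyte, and neutrophil and monocyte markers did not overlap between the diets of the offspring, whereas those of macrophage, smooth muscle and fibroblast markers did. Summed over 15 endothelial genes, 67064 to 108460 normalised counts were found in CD offspring against 2386 to 42276 in WD offspring, with none of the 15 at 0 except Robo4 in WD_WD replicate 2. Over 14 macrophage genes the sums were 11817 to 130820 and 60621 to 1149300, over 7 neutrophil and monocyte genes 84.9 to 1870 and 16028 to 202010, over 12 lymphocyte genes 299 to 5431 and 7688 to 409030, over 12 smooth muscle genes 13119 to 88206 and 1263 to 24197, and over 9 fibroblast genes 36921 to 106870 and 4645 to 148250. CD_WD replicate 1 stood apart, with the highest lymphocyte sum and the lowest endothelial and smooth muscle sums of the 12. The part of these marker levels in the differences below was not tested, and in bulk RNA fewer cells of a type and less RNA per cell cannot be told apart.

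The offspring's diet was compared first, since it is where chaperone genes differed. In both comparisons the smallest adjusted p of the 74 genes belonged to rises of Hspe1, Dnajc15 and Dnajb1, a mitochondrial chaperonin lid, a mitochondrial J-domain protein and the main J-domain partner of inducible Hsp70. Cytosolic Hsp90aa1 and Hspa8 rose with them, Dnajc10 fell in both, and Hspb7 and Hspb6 fell with CD mothers. With CD mothers 13 of the 74 genes passed limma's test at a Benjamini-Hochberg adjusted p under 0.05, 10 higher and 3 lower in WD offspring, against a background of 15.0% of all 10655 genes (9.46% higher and 5.55% lower). With WD mothers 15 passed, 14 higher and 1 lower, against a background of 24.4% (14.2% higher and 10.2% lower). The shares of the 74 genes, 17.6% and 20.3%, are near these backgrounds, so the counts are no result about chaperones as a class. Of the genes that passed, 9 passed in both comparisons, which is 69.2% of the 13 and 60.0% of the 15. The groups compared share no library, but both tests draw their spread from 1 fit to all 12 libraries. The share of all genes that passed in both is not given here, so this overlap is no result about chaperones. In 17 of the 74 genes all 6 WD offspring libraries lay above all 6 CD offspring libraries, beside 12.6% of all genes, and in 1 gene they lay below, beside 9.69%.

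**Figure D1:**
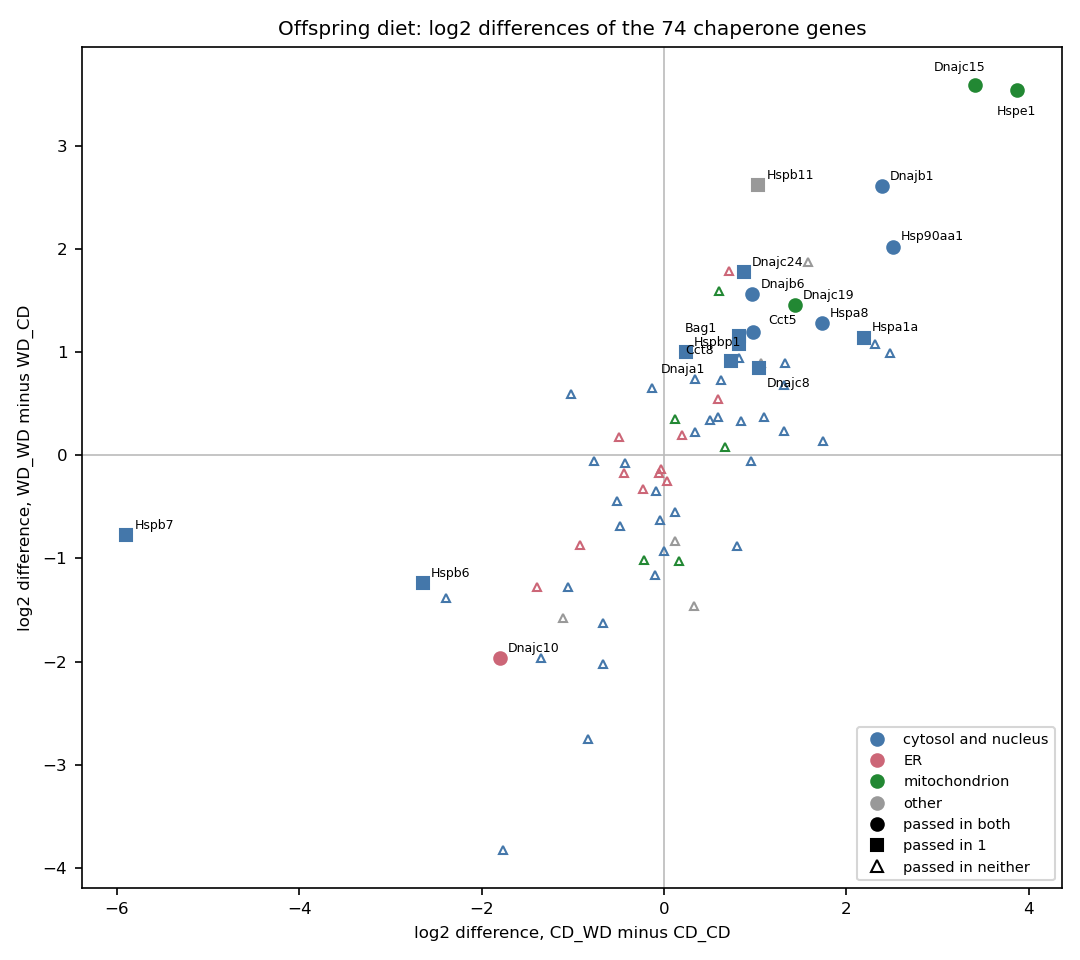
Log2 difference between WD and CD offspring for each of the 74 chaperone genes, with CD mothers on the horizontal axis and WD mothers on the vertical axis. Colours give the compartment of the protein, and filled circles and squares mark genes that passed limma's test in both or in 1 of the comparisons. Hspe1 and Dnajc15 lie farthest to the upper right, and the ER gene Dnajc10 is the only one that passed as lower in both. Among values that passed, total count scaling turns the direction of Cct5 on both axes. It also turns Dnajc8, Dnajb6 and Dnajc19 on the horizontal axis, and Cct8, Bag1, Dnaja1, Hspa8 and Hspbp1 on the vertical. Values that did not pass shift as well: the median of the 74 genes goes from 0.34 and 0.21 to -1.10 and -1.16.

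These counts depend on how libraries are scaled. The deposited scaling centres each library on its typical gene. Scaled by total count instead, the median log2 difference of all genes shifted by -1.43 with CD mothers and -1.365 with WD mothers, and the split of the 74 genes became 3 higher and 29 lower, and 3 higher and 32 lower (background 2.73% higher and 38.5% lower, and 4.12% and 40.2%). The 3 higher genes were Hspe1, Dnajc15 and Dnajb1 in both. These 3 passed as higher in both comparisons under each of the 23 alternatives run, the omission of each library included.

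Hspe1 (Hsp10, at chr1:55088132-55091307 in GENCODE on GRCm38) caps the Hspd1 chamber in which mitochondrial proteins fold. Its normalised counts were 618, 455 and 697 (CD_CD) and 779, 523 and 722 (WD_CD). Those of CD_WD were 31293, 5656 and 3538, and those of WD_WD 10267, 7229 and 6181. All 6 WD offspring libraries lay above all 6 CD offspring libraries, and CD_WD replicate 1 was the highest. The log2 difference was 3.88 ± 0.61 (SE) with CD mothers (limma, Benjamini-Hochberg adjusted p = 0.00226) and 3.53 ± 0.61 with WD mothers (adjusted p = 0.00209). Without CD_WD replicate 1 the former was 2.94 (adjusted p = 0.000184). Of the 50-base stretches of Hspe1, 22.8% also occur in other genes, and its exons overlap those of Hspd1 on the opposite strand.

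Its partner Hspd1 (Hsp60, chr1:55077835-55088243), which is transcribed in the other direction, did not pass. It was counted at 1012, 636 and 641 (CD_CD), 1195, 1118 and 1216 (WD_CD), 1912, 1000 and 871 (CD_WD), and 1182, 1134 and 1433 (WD_WD). The groups overlapped, with log2 differences of 0.67 ± 0.34 (adjusted p = 0.206) and 0.08 ± 0.34 (adjusted p = 0.881). The ratio of Hspe1 to Hspd1 within a library, which no scaling changes, was 0.468 to 1.09 in CD offspring against 4.06 to 16.4 in WD offspring. It was not corrected for coding length (306 and 1719 bases), with which the differences of all genes moved, as given below. Hspa9, the mitochondrial Hsp70, was likewise not called, at 580, 558 and 636 (CD_CD), 677, 536 and 708 (WD_CD), 781, 519 and 653 (CD_WD) and 868, 482 and 1279 (WD_WD). Its log2 differences were 0.12 ± 0.37 and 0.35 ± 0.37, with 95% intervals of -0.67 to 0.91 and -0.44 to 1.15. Dnaja3, the J-domain protein of the mitochondrial matrix, had log2 differences of -0.22 ± 0.39 and -1.01 ± 0.39 and did not pass (adjusted p = 0.769 and 0.0746).

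Dnajc15 (chr14:77820681-77875125) sits at the inner mitochondrial membrane beside the protein import motor. Counts were 320, 190 and 396 (CD_CD), 334, 269 and 314 (WD_CD), 5836, 2540 and 2000 (CD_WD), and 5299, 2880 and 3211 (WD_WD). The lowest WD offspring library was about 5 times the highest CD offspring library. Log2 differences were 3.42 ± 0.43 and 3.58 ± 0.43, with adjusted p = 0.000999 and 0.000385 by limma. None of the 50-base stretches of Dnajc15 occurs in another gene. Dnajc19, a related protein of the import motor, rose by 1.43 ± 0.40 and 1.46 ± 0.40 on the log2 scale (adjusted p = 0.0306 and 0.021), with 331 to 481 counts in CD offspring against 722 to 1790 in WD offspring. Its call was lost when any of 4 libraries was left out with CD mothers (all CD_CD libraries and CD_WD replicate 1, adjusted p up to 0.114) and likewise any of 4 with WD mothers (WD_CD replicates 2 and 3, WD_WD replicates 1 and 3, up to 0.0704), and its direction flipped to -0.01 under total count scaling with CD mothers.

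**Figure D2:**
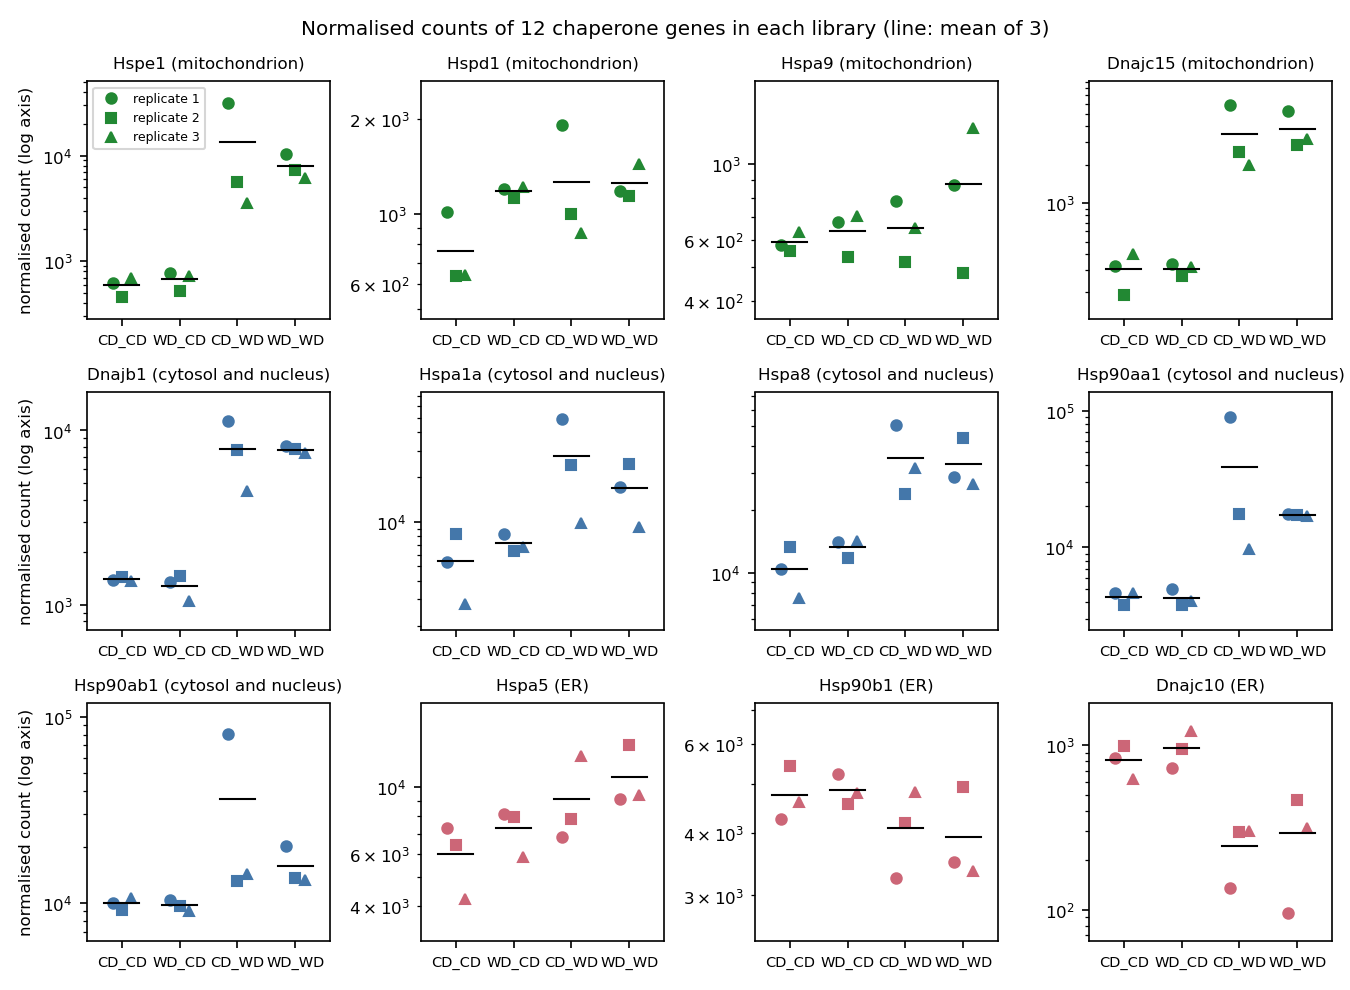
Normalised counts on a log axis of 12 chaperone genes in each library, with marker shapes for replicates and a line at the mean of 3. Hspe1, Dnajc15, Dnajb1 and Hsp90aa1 are separated by the offspring's diet, Hspd1, Hspa9 and Hsp90b1 are not, and CD_WD replicate 1 is the highest library for Hspe1, Hsp90aa1 and Hsp90ab1.

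In the cytosol, the smallest adjusted p belonged to the J-domain protein Dnajb1 (Hsp40, chr8:83608193-83612653). It was counted at 1383, 1445 and 1359 (CD_CD), 1354, 1452 and 1046 (WD_CD), 11282, 7675 and 4520 (CD_WD), and 8102, 7808 and 7380 (WD_WD). The diets of the offspring did not overlap. The log2 difference was 2.39 ± 0.33 with CD mothers and 2.61 ± 0.33 with WD mothers (limma adjusted p = 0.00129 and 0.000493).

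Hspa1a and Hspa1b encode the stress-inducible Hsp70. Hspa1a had 5320, 8222 and 2799 counts (CD_CD), 8323, 6384 and 6725 (WD_CD), 49357, 24039 and 9875 (CD_WD), and 17079, 24313 and 9226 (WD_WD). Every WD offspring library was above every CD offspring library, by the least between WD_WD replicate 3 and WD_CD replicate 1. It rose by 2.19 ± 0.59 on the log2 scale with CD mothers (adjusted p = 0.0261) and had a difference of 1.14 ± 0.59 with WD mothers (adjusted p = 0.171). The former call was lost without CD_CD replicate 1 or 3 or CD_WD replicate 1 or 2 (adjusted p 0.0515 to 0.0976) and under total count scaling (0.75, adjusted p = 0.23). Hspa1b had 1875, 2041 and 573 counts (CD_CD), 3458, 1819 and 2907 (WD_CD), 21165, 7407 and 1721 (CD_WD), and 6735, 4948 and 5195 (WD_WD), with log2 differences of 2.31 ± 0.74 (adjusted p = 0.0524) and 1.08 ± 0.74 (adjusted p = 0.296). The values of either copy are uncertain, because 66.3% of the 50-base stretches of Hspa1a and 62.3% of those of Hspa1b occur in other genes, mainly in each other. Such shared stretches also made up 50.1% of Hspb1, 47.5% of Hsp90aa1, 42.1% of Hspd1 and 39.4% of Hspa8. The sum of both was 3372 to 11781 in CD offspring against 11595 to 70521 in WD offspring, where only the highest CD and the lowest WD library cross.

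Hspa8, the constitutive Hsp70, had 10377, 13177 and 7601 counts (CD_CD), 14055, 11692 and 14084 (WD_CD), 50647, 23732 and 31698 (CD_WD), and 28677, 43899 and 26469 (WD_WD). No library of CD offspring reached the lowest of WD offspring. Log2 differences were 1.73 ± 0.43 with CD mothers (limma adjusted p = 0.0181) and 1.28 ± 0.43 with WD mothers (adjusted p = 0.0462). The former was lost without CD_CD replicate 1 or 3 (adjusted p = 0.0663 and 0.07). The latter was lost when any of 10 of the 12 libraries was left out (all but CD_WD replicates 1 and 2, adjusted p 0.0513 to 0.144), and it turned to -0.10 under total count scaling.

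Of the cytosolic Hsp90 pair, Hsp90aa1 is the stress-responsive form. Its counts were 4674, 3788 and 4625 (CD_CD), 4998, 3809 and 4071 (WD_CD), 88999, 17411 and 9752 (CD_WD), and 17516, 17360 and 17045 (WD_WD). The diets of the offspring did not overlap, and CD_WD replicate 1 was about 5 times the next library. The log2 difference was 2.51 ± 0.61 with CD mothers (limma adjusted p = 0.017) and 2.02 ± 0.61 with WD mothers (adjusted p = 0.0312). The former was 1.58 without CD_WD replicate 1 (adjusted p = 0.0027) and was not called without CD_CD replicate 1 or 2 (adjusted p = 0.0576 and 0.067). The latter was not called without any 1 of the 6 libraries compared (adjusted p 0.0525 to 0.085). Under total count scaling the differences were 1.06 and 0.64 (adjusted p = 0.086 and 0.284). Hsp90ab1, the constitutive form, had 9980, 9181 and 10653 counts (CD_CD), 10376, 9629 and 9050 (WD_CD), 81020, 13121 and 14261 (CD_WD), and 20308, 13662 and 13288 (WD_WD). Here too the diets did not overlap, but the differences of 1.32 ± 0.58 and 0.68 ± 0.58 did not pass (adjusted p = 0.15 and 0.413). Hsp90aa1 over Hsp90ab1 was 0.396 to 0.482 in CD offspring against 0.684 to 1.33 in WD offspring.

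Smaller rises were seen in other cytosolic helpers. Dnajb6, an anti-aggregation J-domain protein, was at 487 to 770 counts in CD offspring against 1131 to 1905 in WD offspring, and rose by 0.97 ± 0.29 and 1.56 ± 0.29 on the log2 scale (adjusted p = 0.0424 and 0.0032). Under total count scaling the former turned to -0.47, and leaving out any of 6 libraries (all CD_CD, CD_WD replicates 2 and 3 and WD_CD replicate 2) ended it (adjusted p 0.0573 to 0.148). Dnajc8, a splicing-associated J-domain protein, rose by 1.04 ± 0.30 with CD mothers (adjusted p = 0.0325) and differed by 0.85 ± 0.30 with WD mothers (adjusted p = 0.0539). The first was -0.40 under total count scaling, and it was not called without any 1 of the CD_CD libraries or CD_WD replicate 1 or 2 (adjusted p 0.052 to 0.111). Dnaja1, a partner of Hspa8, was at 926 to 1540 and 2005 to 2288 counts. It differed by 0.74 ± 0.27 with CD mothers (adjusted p = 0.0874) and rose by 0.91 ± 0.27 with WD mothers (adjusted p = 0.0295), a value of -0.47 under total count scaling that was also lost without WD_CD replicate 2 or 3 or WD_WD replicate 1 or 2 (adjusted p 0.0625 to 0.109).

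Of 6 BAG exchange factors 0 passed with CD mothers and 1 with WD mothers, and of 8 subunits of the CCT ring, which folds actin and tubulin, 1 and 2 passed as higher, beside 9.46% and 14.2% of all genes. The BAG medians were -0.55 and -0.50, with 1 of 6 positive in each comparison. Bag1 was at 1066 to 1963 counts in CD offspring against 2746 to 3472 in WD offspring. Its difference was 0.82 ± 0.29 with CD mothers (adjusted p = 0.0746) and it rose by 1.16 ± 0.29 with WD mothers (adjusted p = 0.0135, or 0.0598 without WD_CD replicate 3, and -0.23 on the log2 scale under total count scaling). Bag3, the stress-induced member, had differences of 0.00 ± 0.69 and -0.92 ± 0.69 (adjusted p = 1.0 and 0.338). Of the CCT subunits, Cct5 passed in both comparisons (0.98 ± 0.29 and 1.19 ± 0.29, adjusted p = 0.0379 and 0.012) and Cct8 with WD mothers (1.08 ± 0.29, adjusted p = 0.019). Under total count scaling these were -0.46, -0.19 and -0.30. Cct5 was lost with CD mothers without any 1 of 7 libraries (all 6 compared and WD_CD replicate 2, adjusted p 0.0519 to 0.137) and with WD mothers without WD_CD replicate 3 (adjusted p = 0.0523), and Cct8 without WD_CD replicate 1 or 2 or WD_WD replicate 2 (adjusted p 0.0524 to 0.0672). Tcp1 and Cct2 did not pass, at 0.82 ± 0.33 and -0.13 ± 0.31 with CD mothers and 0.94 ± 0.33 and 0.65 ± 0.31 with WD mothers.

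Heat shock transcription factors and several abundant chaperones did not pass in either comparison. Hsf1 ranged from 244 to 797 counts in CD offspring against 205 to 626 in WD offspring, with log2 differences of -0.10 ± 0.46 and -1.16 ± 0.46 (adjusted p = 0.921 and 0.0846). Hsf2 had differences of -0.51 ± 1.00 and -0.44 ± 1.00. Hspb1 (Hsp25 in the mouse), which binds unfolded protein without ATP, had 4364 to 7204 counts in CD offspring against 2719 to 10252 in WD offspring, with differences of -0.09 ± 0.47 and -0.34 ± 0.47. Hspa4, an exchange factor of the Hsp110 type, had differences of 0.51 ± 0.44 and 0.34 ± 0.44. Their 95% intervals reach beyond 1 log2 unit in at least 1 direction in at least 1 comparison, so that a 2-fold change lies within them.

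Small heat shock proteins of muscle went the other way. Hspb7 had 504, 620 and 508 counts (CD_CD), 47.5, 442 and 386 (WD_CD), 0, 107 and 6.03 (CD_WD), and 149, 120 and 91.1 (WD_WD). Hspb6 (Hsp20) had 632, 644 and 598 (CD_CD), 193, 588 and 414 (WD_CD), 45.6, 230 and 92.1 (CD_WD), and 221, 81.9 and 194 (WD_WD). With CD mothers the groups did not overlap for either gene, and Hspb7 fell by 5.90 ± 1.34 and Hspb6 by 2.64 ± 0.63 on the log2 scale (limma adjusted p = 0.0124 and 0.0152). The size for Hspb7 rests on the library at 0 and on the pseudocount, and without that library (CD_WD replicate 1) it was -4.30 (adjusted p = 0.0219). Without CD_CD replicate 2 it was not called (adjusted p = 0.0501), and Hspb6 was not called without CD_CD replicate 1 or 2 (adjusted p = 0.0574 and 0.0567). With WD mothers the groups overlapped and neither passed (-0.77 ± 1.34 and -1.24 ± 0.63). WD_CD replicate 1, the lowest of the CD offspring for both genes, also had the lowest smooth muscle marker sum of the 6 (13119), and CD_WD replicate 1, the lowest of all, had the lowest of the 12 (1263). Other libraries did not follow that order. CD_WD replicates 2 and 3 had sums of 12726 and 13079, but Hspb7 at 107 and 6.03 and Hspb6 at 230 and 92.1. The part of smooth muscle RNA in these values was not tested. Hspb8, another small heat shock protein, had differences of -1.35 ± 0.79 and -1.96 ± 0.79 and did not pass (adjusted p = 0.279 and 0.0865).

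Of the 12 ER genes, none passed as higher in either comparison and Dnajc10 fell in both. Dnajb14 had 58.1, 95.2 and 212 counts (WD_CD) and 352, 325 and 432 (WD_WD), which did not overlap, but was not called. Dnajc10 (ERdj5) reduces disulfide bonds of proteins bound for degradation. Its counts were 837, 986 and 620 (CD_CD), 725, 942 and 1212 (WD_CD), 134, 295 and 302 (CD_WD), and 95.04, 463 and 313 (WD_WD). All WD offspring libraries lay below all CD offspring libraries, and no other of the 74 genes showed this. The log2 difference was -1.80 ± 0.55 with CD mothers (limma adjusted p = 0.0429) and -1.96 ± 0.55 with WD mothers (adjusted p = 0.0218). The former was -1.42 without CD_WD replicate 1 (adjusted p = 0.119) and was lost when any of 9 of the 12 libraries was left out (all but CD_WD replicate 3 and WD_WD replicates 1 and 2, up to 0.146). The latter was lost without WD_CD replicate 2 or 3 or WD_WD replicate 1 (adjusted p 0.0591 to 0.0741).

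Hspa5 (BiP), the ER Hsp70 and sensor of unfolded protein, had 7326, 6403 and 4220 counts (CD_CD), 8148, 7987 and 5837 (WD_CD), 6830, 7807 and 12704 (CD_WD), and 9160, 13832 and 9396 (WD_WD). The groups overlapped with CD mothers and did not with WD mothers. The log2 differences were 0.59 ± 0.37 and 0.55 ± 0.37 (adjusted p = 0.31 and 0.287), with 95% intervals of -0.21 to 1.39 and -0.25 to 1.35. Hsp90b1 (Grp94) had 4252, 5414 and 4602 counts (CD_CD), 5224, 4561 and 4803 (WD_CD), 3248, 4174 and 4817 (CD_WD), and 3496, 4929 and 3350 (WD_WD). Its differences were -0.23 ± 0.29 and -0.33 ± 0.29, with intervals of -0.86 to 0.40 and -0.96 to 0.30. Under the deposited scaling a 2-fold change in either direction lies outside both. Total count scaling shifts the median of all genes by -1.43 and -1.365, so this bound, like the differences of Hspa5, holds for the deposited scaling only. The J-domain partners of Hspa5 in the list were also not called. Dnajb9 (ERdj4) had differences of -0.03 ± 0.40 and -0.13 ± 0.40, Dnajb11 (ERdj3) of -0.05 ± 0.47 and -0.17 ± 0.47, and Dnajc3, also called p58IPK, of 0.04 ± 0.36 and -0.25 ± 0.36.

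Compartments can be set against each other within a library, where scaling has no part. Between groups, the median log2 difference of the 12 ER genes was -0.14 with CD mothers and -0.17 with WD mothers, that of the 48 cytosolic and nuclear genes 0.55 and 0.34, and that of the 8 mitochondrial genes 0.64 and 0.90, beside -0.02 and 0.01 for all genes, while under total count scaling the cytosolic (-0.88 and -1.05) and mitochondrial (-0.80 and -0.48) medians change direction and the ER medians were -1.59 and -1.56. The lower ER value with WD mothers was 0.00 without WD_CD replicate 3, and 0.01 with the coding length trend removed. The ER median lay below the cytosolic median by 0.52 to 0.85 with CD mothers and by 0.42 to 0.77 with WD mothers over 24 settings, and the mitochondrial median lay above the ER median by 0.63 to 1.09 and by 0.58 (length trend removed) to 1.67 (without WD_WD replicate 2, against 1.08 with all libraries). The mean log2 level of mitochondrial genes minus that of ER genes was -0.95 to -0.03 in CD offspring against 0.12 to 1.91 in WD offspring, with no overlap. Of the 8 mitochondrial genes only Hspe1, Dnajc15 and Dnajc19 passed, with short coding sequences of 306, 447 and 471 bases. The mean was not corrected for length, so it does not show a rise of the whole compartment. ER minus cytosolic genes was -0.04 to 0.53 and -0.87 to 0.10, which overlap. Hspa8 over Hspa5 was 1.42 to 2.41 and 2.50 to 7.42, and Hsp90aa1 over Hsp90b1 was 0.700 to 1.10 and 2.02 to 27.4. CD_WD replicate 1 had the lowest value of ER minus cytosolic genes and the highest of the other 3 measures.

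**Figure D3:**
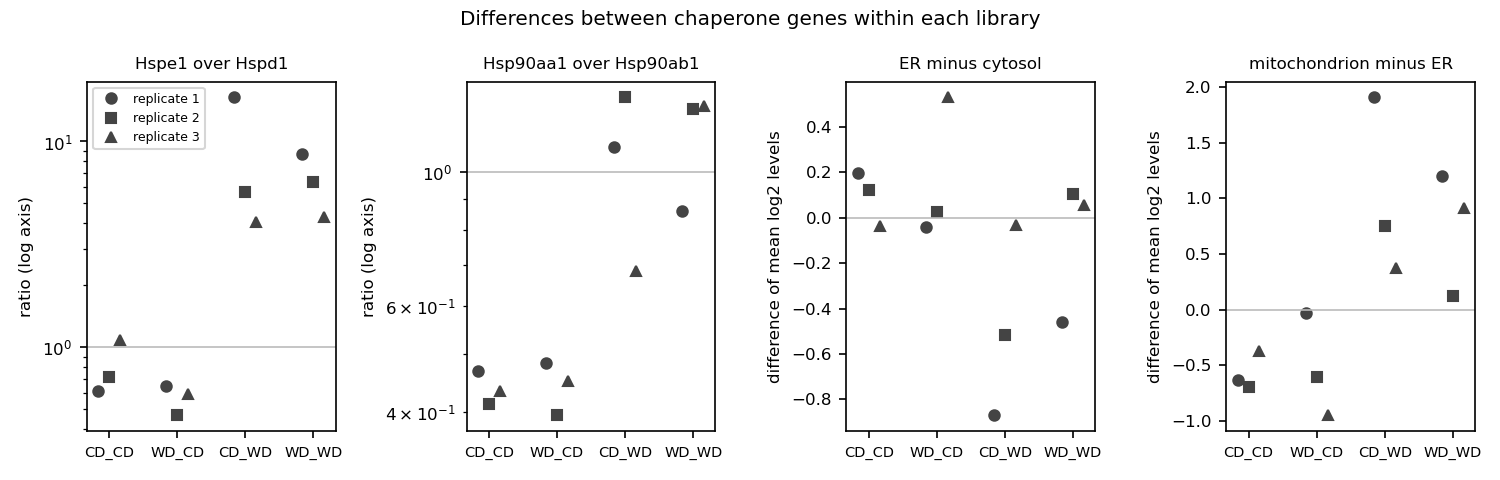
Ratio of Hspe1 to Hspd1 and of Hsp90aa1 to Hsp90ab1 (log axes), and the difference of mean log2 levels between compartments, in each library by group. Hspe1 over Hspd1 is 0.468 to 1.09 in CD offspring against 4.06 to 16.4 in WD offspring, while ER minus cytosol overlaps between the diets. None of these measures was corrected for coding length.

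Length of the coding sequence moved with the offspring comparisons in the table as a whole. With genes split into 4 groups by coding length, the shortest group ran from 93 to 822 bases, where the median log2 difference was 0.74 with CD mothers and 0.89 with WD mothers, and 25.6% and 34.4% were called higher. In the longest group, from 2184 bases up, it was -0.71 and -0.81, and 1.62% and 2.93% were called higher. Hspe1 (306 bases), Dnajc15 (447) and Dnajc19 (471) are in the shortest group, Dnajb1 (1020) in the second, Hspa8 (1938), Hspa1a (1923) and Hspa5 (1965) in the third, and Hsp90aa1 (2199) and Dnajc10 (2379) in the longest. With the length trend of each library subtracted, a step chosen after the data were seen, Hspe1 differed by 2.47 and 1.90 (limma adjusted p = 0.0123 and 0.0249), Dnajc15 by 2.48 and 2.44, Dnajb1 by 2.28 and 2.46, and Hsp90aa1 by 2.92 and 2.55 (adjusted p = 0.0125 and 0.016). Dnajc19 then differed by 0.56 and 0.38 (adjusted p = 0.352 and 0.471) and Dnajc10 by -1.33 and -1.36 (adjusted p = 0.151 and 0.107). In all, 11 of the genes passed with CD mothers (background 9.35%) and 17 with WD mothers (background 16.7%). What underlies the length trend was not tested.

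**Figure D4:**
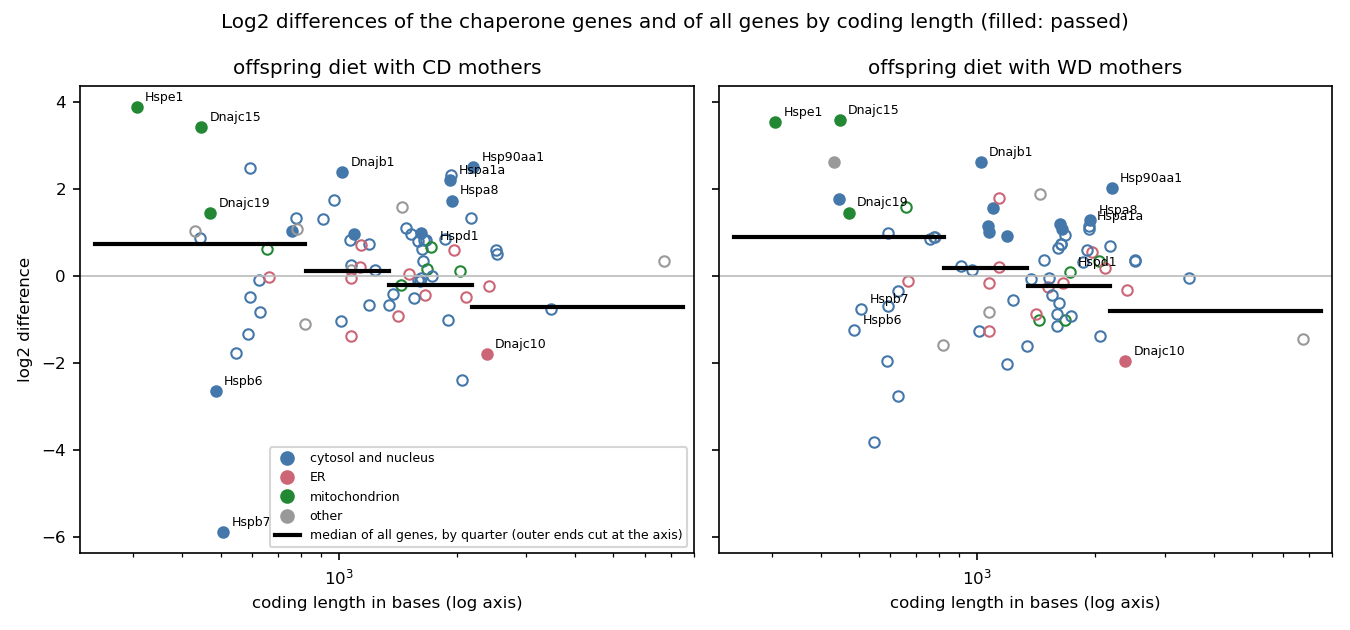
Log2 difference of the chaperone genes against coding length in bases (log axis), for both comparisons of the offspring's diet, with bars at the median of all genes in each of 4 length groups. The median of all genes goes from 0.74 and 0.89 in the shortest group to -0.71 and -0.81 in the longest, while Dnajb1 and Hsp90aa1 lie well above the bars at their lengths.

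Partners of these chaperones were taken from lists for each compartment. Their counts are to be read against all genes, of which 9.46% rose and 5.55% fell with CD mothers, and 14.2% and 10.2% with WD mothers (under total count scaling 2.73% and 38.5%, and 4.12% and 40.2%). The list genes were not set against genes of like coding length, and in the shortest length group 25.6% and 34.4% of all genes were called higher. Of 23 cytosolic partners, 6 rose and 0 fell with CD mothers, and 8 rose and 1 fell with WD mothers. Under total count scaling the split was 1 higher and 7 lower, and 1 higher and 9 lower. Pfdn5, a subunit of the prefoldin complex that hands substrate to CCT, rose by 2.64 ± 0.48 and 2.72 ± 0.48 on the log2 scale (adjusted p = 0.00405 and 0.00224). Hsbp1, a small protein that binds Hsf1, rose by 1.62 ± 0.33 and 1.70 ± 0.33 (adjusted p = 0.00633 and 0.00367). Fkbp5, an Hsp90 partner induced by glucocorticoids, fell by 1.85 ± 0.41 with WD mothers (adjusted p = 0.00772). Pfdn6, of the same complex as Pfdn5, rose by 1.77 ± 0.42 and 1.60 ± 0.42 (adjusted p = 0.0146 and 0.0163). The medians of the list were 0.84 and 0.58, which turn to -0.60 and -0.80 under total count scaling. The 1 gene that rose under that scaling was Pfdn5 in both comparisons, at 1.20 and 1.33, while Hsbp1 (0.18 and 0.31) and Pfdn6 (0.33 and 0.22) no longer passed.

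Among 28 genes of ER folding and the unfolded protein response, 3 rose and 2 fell with CD mothers, and 6 rose and 3 fell with WD mothers, beside 15.0% and 24.4% of all genes called in either direction. Scaled by total count, the split was 0 higher and 12 lower, and 2 higher and 12 lower. Ddit3 (CHOP), a transcription factor of the late stress response, rose by 2.34 ± 0.42 and 3.49 ± 0.42 on the log2 scale (limma adjusted p = 0.00396 and 0.000393). Its counts were 210, 262 and 396 (CD_CD), 126, 265 and 366 (WD_CD), 1722, 1136 and 1451 (CD_WD), and 3088, 1905 and 2985 (WD_WD), with no overlap between the diets of the offspring. Sdf2l1, which works with Dnajb11 and Hspa5, rose by 2.31 ± 0.41 and 2.06 ± 0.41, and Sec61b, a subunit of the translocation channel, by 2.32 ± 0.38 and 2.64 ± 0.38. Of those that fell, all chosen after their values were seen, Sel1l, of the degradation machinery, fell by 1.15 ± 0.34 and 1.52 ± 0.34 (adjusted p = 0.0374 and 0.00799), and Serpinh1, the collagen chaperone Hsp47, by 2.38 ± 0.69 and 2.35 ± 0.69 (adjusted p = 0.0353 and 0.0269). The medians of the list were 0.34 and 0.42, and under total count scaling -1.10 and -0.97, where Ddit3 was at 0.90 (adjusted p = 0.118) and 2.11 (adjusted p = 0.00364). Under that scaling Sdf2l1 was at 0.87 and 0.68 and passed in neither (adjusted p = 0.176 and 0.282), and Sec61b was at 0.88 (adjusted p = 0.0508) and 1.26 (adjusted p = 0.0105).

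Of 19 genes of mitochondrial protein quality control, 4 rose and 1 fell with CD mothers, and 2 rose and 0 fell with WD mothers, beside 15.0% and 24.4% of all genes called in either direction. With total count scaling, it was 0 higher and 5 lower, and 0 higher and 7 lower. Timm23, the import channel, rose by 1.44 ± 0.29 and 1.65 ± 0.29 (limma adjusted p = 0.00635 and 0.00223), and Grpel1, the exchange factor of Hspa9, by 1.128 ± 0.31 and 1.27 ± 0.31 (adjusted p = 0.0291 and 0.0125), which under total count scaling were -0.0014 and 0.26, and -0.31 and -0.11. Phb, a prohibitin, rose by 0.93 ± 0.27 with CD mothers (adjusted p = 0.036), or -0.51 under that scaling. Lonp1, a matrix protease, fell by 1.60 ± 0.47 with CD mothers (adjusted p = 0.036). Medians were 0.62 and 0.42, or -0.82 and -0.96 under total count scaling.

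The immediate early list, 14 genes that respond fast to handling of cells as well as to other stimuli, was measured beside these. Summed, it was at 78831 to 161070 normalised counts in CD offspring against 178030 to 355040 in WD offspring. With CD mothers 5 of the 14 rose, led by Klf6 (1.44 ± 0.37), Egr1 (1.45 ± 0.39) and Btg2 (1.32 ± 0.38), and with WD mothers 1, Btg2 (1.98 ± 0.38, limma adjusted p = 0.00345), beside 9.46% and 14.2% of all genes. By total count scaling 0 rose and 1 fell in each comparison. Whether cell isolation took part in the heat shock gene values was not tested.

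By group mean level per kilobase of exon, the order of chaperone genes also differed between the diets of the offspring. The order in CD_WD leans on replicate 1, as given below. Hspb1 was highest in CD_CD and WD_CD at 6131 and 5373 normalised counts per kilobase, followed by Hsp90ab1 (3314 and 3229), Hspa8 (2415 and 3087), Hspa1a (1836 and 2408) and Hspa5 (1415 and 1732). Of the CD_WD libraries the first 5 were Hsp90ab1 (12049), Hsp90aa1 (9850), Hspa1a (9355), Hspe1 (9155) and Hspa8 (8221), and in WD_WD they were Hspa8 (7676), Hspa1a (5687), Hspe1 (5354), Hsp90ab1 (5253) and Hspb1 (4707). Neighbours among these first 5 in the WD offspring were closer than the SD of their replicates, as were Hspa8 and Hspa1a in CD_CD. Hspa1a and Hspa5 in CD_CD were closer than the SD of Hspa1a but not than that of Hspa5. In CD_WD the SD of counts exceeded the mean for Hspe1 (15449 against 13495, n = 3), Hsp90aa1 (43710 against 38720) and Hsp90ab1 (38876 against 36134). Counts of Hsp90ab1 in CD_WD replicates 1, 2 and 3 were 81020, 13121 and 14261, and those of Hspb1 were 3281, 6143 and 10252. The order without replicate 1 is not given here.

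The mother's diet, the question in the title of the series, was compared within each offspring diet. No chaperone gene passed by limma with Benjamini-Hochberg adjustment in CD offspring, in WD offspring or in the test of the difference between them (the interaction), against a background of 0.0% of all genes in each. At an unadjusted p under 0.05 there were 3, 2 and 1 of the 74, beside 2.59%, 5.89% and 3.21% of all genes. By edgeR 0 genes of the whole table passed in each (0.0%). By DESeq2 9, 14 and 10 passed (0.0845%, 0.131% and 0.0939%), with 0 chaperone genes among them. The authors' deposited table has 13 and 36 genes that passed for the mother's diet in CD and WD offspring, with 0 chaperone genes among them, and its lowest adjusted p of a chaperone gene was 0.988 and 0.409. These comparisons share libraries with those of the offspring's diet.

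The genes nearest to passing differed between the comparisons. In CD offspring these were Dnajc13, a J-domain protein of endosomes (WD mothers minus CD mothers 1.64 ± 0.67), Hspa14, an Hsp70 bound to ribosomes (0.92 ± 0.38), and Hspa4l, of the Hsp110 type (1.45 ± 0.64), all with a limma adjusted p of 1.0. Hspa14 had 222, 288 and 347 counts (CD_CD) and 443.7, 420 and 808 (WD_CD), which did not overlap. In WD offspring they were Hspb7 (3.70 ± 1.34), Dnajc21, a J-domain protein of ribosome assembly (-1.70 ± 0.73), and Cct2 (0.67 ± 0.31), with a limma adjusted p = 0.836. The value of Hspb7 includes the library at 0 in CD_WD. In the interaction the smallest p also belonged to Hspb7 (5.12 ± 1.90, limma adjusted p = 0.997), followed by Dnajc13 and Hspa14. Smooth muscle markers had the same directions as Hspb7. Their median difference by the mother's diet was -1.06 in CD offspring (0 of 12 positive), where Hspb7 was at -1.42, 1.19 in WD offspring (12 of 12) and 2.57 in the interaction (12 of 12), with 0 of the 12 called in each. Their part in the values of Hspb7 was not tested.

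For some of the main chaperones the intervals were narrow enough to bound the mother's effect. The 95% interval lay within 1 log2 unit of 0, a 2-fold change, for 16 of the 74 genes in CD offspring against 19 in WD offspring, beside 9.76% and 7.67% of all genes. Dnaja1 differed by -0.06 (-0.65 to 0.55) in CD offspring, and by 0.12 (-0.47 to 0.71) in WD offspring, and Hsp90b1 by 0.04 (-0.59 to 0.67) and -0.06 (-0.69 to 0.57). Hspe1, Hsp90aa1 and Hspa1a had wider intervals that pass 1 log2 unit in both comparisons. With 3 libraries a group, a 2-fold effect of the mother's diet on them, in at least 1 direction, was thus not excluded.

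**Figure D5:**
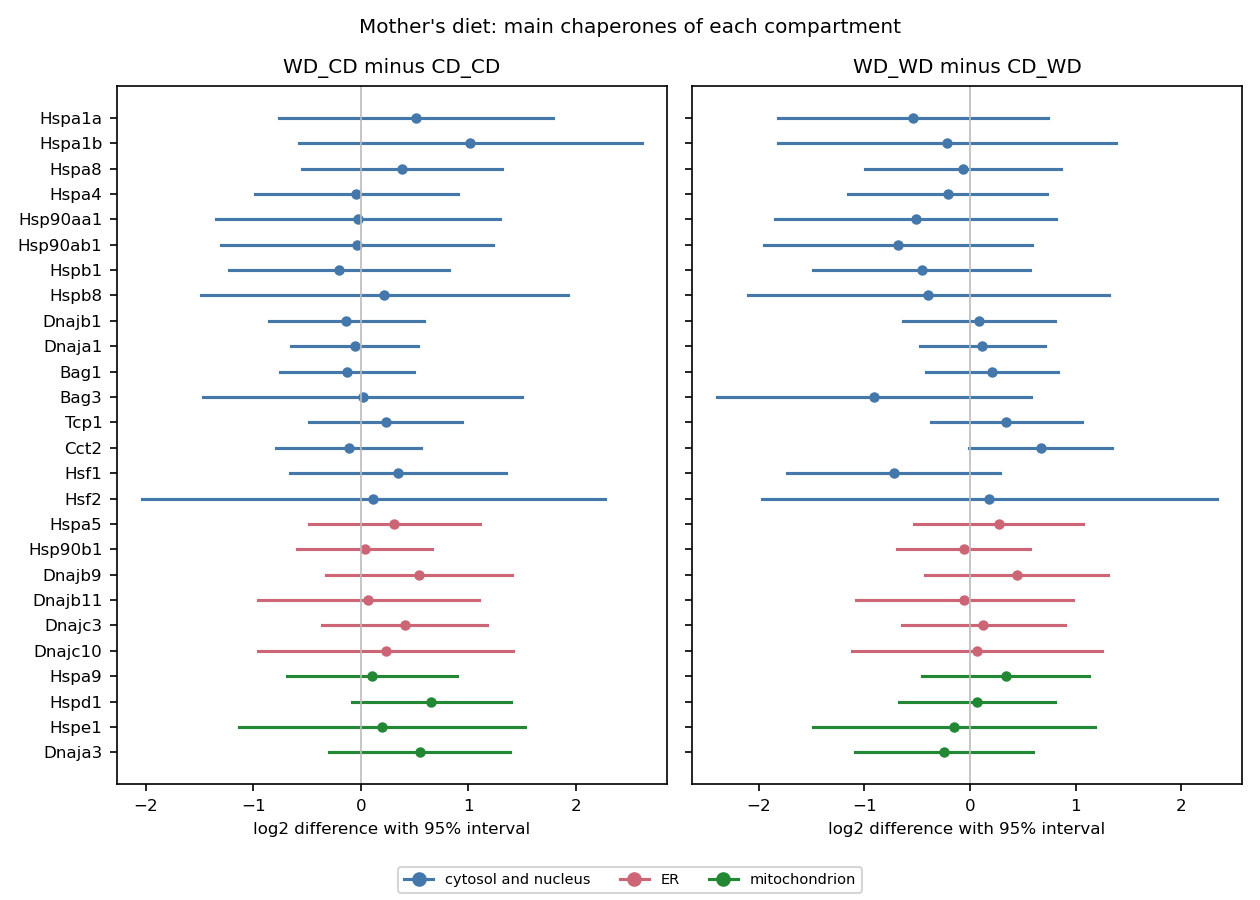
Log2 difference by the mother's diet with its 95% interval for 26 main chaperone genes, in CD offspring (left) and WD offspring (right), coloured by compartment. Each interval includes 0, and those of Hsf2, Bag3, Hspa1b and Hspb8 are among the widest.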

How the data were processed

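SMART-seq libraries of mouse aortic endothelial cells were processed by the authors on GRCm38 (mm10), with HISAT2 2.2.1 and featureCounts 2.0.1 beside DESeq2, SAMtools 1.13, Trim Galore 0.6.10 and FastQC 0.12.1, per the submitters' processing notes. Strand handling is not given in the sources used here. As signal, the authors deposited gene counts divided by a size factor of each library, and whole reads were recovered for 100% of 127860 values (within 0.01). The deposited log2 fold changes and p-values of the authors cover the mother's diet only.

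Here log2(value + 1) of all 12 libraries was fitted in 1 model by limma 3.58.1 (R 4.3.3, intensity trend, 8 residual degrees of freedom), with Benjamini-Hochberg adjustment over 10655 genes and a threshold of 0.05. edgeR had been planned for raw counts and was run on recovered reads as an alternative (4.0.16), as was DESeq2 (1.42.0). All adjusted p are limma's unless named, and the fit was tested on simulated data. A fold change on the log2(value + 1) scale understates that of low genes.

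The 74 genes, the pathway and marker lists and the tests were chosen with earlier results of these data known. Named are the main chaperones of each compartment, up to 8 genes per comparison and direction with the smallest p, the 3 with the smallest p where none passed, and up to 3 per list. Coding length and exons came from GENCODE vM21, and promoters from RefSeq.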

Additional observations from a re-analysis of the deposited data

How the results depend on the processing

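Alternatives were another pseudocount (0.5, 8), a mean of at least 100, TMM or total count scaling, edgeR, DESeq2, only the groups compared, a replicate block and the omission of each library; 2 were chosen after seeing the data, namely removal of the coding length trend and omission of CD_WD replicate 1 with WD_CD replicate 3. The chaperone genes called for the offspring's diet, 13 with CD mothers and 15 with WD mothers, were 32 and 35 by total count scaling, and 6 with CD mothers from only the groups compared, which have fewer samples. Omitting single libraries gave 4 to 14 and 6 to 20, and 0 for the mother's diet and the interaction. The pair left out gave 10 and 18, and the length trend removed 11 and 17. Of the genes called with CD mothers, total count scaling reversed Dnajc19 (-0.0078), Dnajc8 (-0.4019), Cct5 (-0.4619) and Dnajb6 (-0.471). Of those called with WD mothers it reversed Cct5 (-0.1946), Bag1 (-0.2289), Cct8 (-0.3025), Dnaja1 (-0.4705), Hspa8 (-0.1028) and Hspbp1 (-0.3821). This scaling lowers all genes, so genes that were not called shift too.

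All genes called, 1599 and 2604, were 4388 and 4723 by total count scaling and 944 and 1682 with the length trend removed. For the mother's diet and the interaction they were 0, against 9, 14 and 10 by DESeq2. Same-numbered libraries of different groups correlated at -0.23 to 0.07, others at -0.21 to 0.24. With 3 libraries a group this cannot exclude pairing by replicate number, on which the labels are silent. With the replicate block 12 and 13 chaperone genes were called, and 1433 and 2319 of all genes. With 3 libraries a group, and as few as 4.07 reads in units of 1e6, a 2-fold effect of the mother's diet was within the 95% interval for most of the 74 genes.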
